A study of Mus musculus with 6 samples.

Results

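The S100 proteins are small calcium-binding proteins, and 7 of their genes were followed here in neutrophils with and without miR-223: S100a8, S100a9, S100a4, S100a6, S100a10, S100a11 and S100a13. Each gene is represented by 1 probe set, a group of short probes on the array read together. The probe sets are 1419394_S_AT for S100a8, 1448756_AT for S100a9, 1424542_AT for S100a4, 1421375_A_AT for S100a6, 1416762_AT for S100a10, 1460351_AT for S100a11 and 1418704_AT for S100a13, as the selection paired them. These were 7 of the 45101 probe sets on the arrays, and all 7 passed a filter on dim signals that kept 27022. Messenger RNA was measured on 6 Affymetrix mouse arrays, 3 for cells grown from miR-223 null bone marrow and 3 for cells grown from wild-type bone marrow. In both genotypes, bone marrow progenitors spent 6 days with SCF (stem cell factor) and G-CSF, the cytokine that drives granulocyte formation, followed by 42 hours from which SCF was omitted. The medium was SILAC-IMDM, made for isotope labelling of proteins, and live neutrophils were picked by MACS, a magnetic sort. The labels give no strain, sex or age of mouse and do not say whether replicates were separate animals or cultures, so p-values here rest on a spread between samples that may be technical. All values are log2 intensities, on which 1 unit is a 2-fold difference in signal. The identity of the cells could not be checked against other neutrophil markers, because no further probe set was paired with a gene.

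Most S100 proteins carry 2 EF-hands, loops that bind calcium, and work as dimers that grip a partner protein when calcium rises. S100a8 and S100a9 pair to form calprotectin, which fills the cytosol of neutrophils, binds zinc and manganese that microbes need, and acts as a danger signal through Toll-like receptor 4 once released. S100a4 binds non-muscle myosin, S100a10 binds annexin A2, S100a11 binds annexin A1, S100a6 is known as calcyclin, and S100a13 helps proteins without a signal peptide, such as interleukin-1 alpha and fibroblast growth factor 1, to leave the cell. MicroRNAs repress mRNAs that pair with their seed, so the comparison asks how these mRNAs stand once the microRNA, which is abundant in granulocytes, is missing.

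The mature 3p strand of miR-223, missing from the null cells, is shown with its seed, bases 2 to 8, in capitals. In RefSeq on GRCm38.p6 the 3p strand lies at chrX:96242884-96242905 on the plus strand. The same gene also gives a mature 5p strand with another seed, GUGUAUU, which is not shown.
mmu-miR-223-3p: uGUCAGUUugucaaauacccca
Sites for this seed in the S100 transcripts were not analysed here.

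All 7 genes lie on mouse chromosome 3, which carries 15 of the 18 S100 protein genes named in RefSeq (GRCm38.p6). S100a8 and S100a9 are next to each other, S100a4 and S100a6 are separated by S100a5 alone, and S100a11 and S100a10 are neighbours of each other, next to Tchhl1. S100a13 lies between S100a1, whose gene model it overlaps, and S100a14. Promoters are shown for the calprotectin pair, which read at the top of the array, and for S100a4 and S100a13, the 2 members that passed the test when arrays were paired by replicate number. Each is the 120 bases before the RefSeq start on GRCm38.p6, 5′ to 3′ along the gene, with TATAAA in capitals where it occurs. They lie at chr3:90668951-90669070 (plus strand, S100a8), chr3:90695722-90695841 (minus strand, S100a9), chr3:90603650-90603769 (plus strand, S100a4) and chr3:90514315-90514434 (plus strand, S100a13).
S100a8: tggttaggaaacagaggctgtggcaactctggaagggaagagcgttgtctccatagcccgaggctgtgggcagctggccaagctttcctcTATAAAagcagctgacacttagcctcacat
S100a9: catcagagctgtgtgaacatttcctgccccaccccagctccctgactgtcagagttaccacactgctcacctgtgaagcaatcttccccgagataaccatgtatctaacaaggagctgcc
S100a4: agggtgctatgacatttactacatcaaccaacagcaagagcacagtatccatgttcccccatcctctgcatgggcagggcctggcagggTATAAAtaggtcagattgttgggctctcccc
S100a13: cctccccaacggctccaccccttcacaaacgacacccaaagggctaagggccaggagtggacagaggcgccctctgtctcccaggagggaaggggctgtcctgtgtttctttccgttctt

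Motif letters were searched on both strands in the 250 bases before the start, for the 6 members with a promoter sequence. TATAAA, the letters of a TATA box, occurred in 2 of 6, S100a8 at 30 to 25 bases before the start and S100a4 at 31 to 26, against 12.4% of 32851 promoters. GGGCGG, a GC box, occurred in S100a11, with 3 copies, and in S100a9, against 32.7% of all promoters. TTGCNNAA, letters bound by C/EBP factors, occurred in S100a9 only among the 6, at 236 to 229 bases before the start, against 9.56%. TGANTCA, letters of an AP-1 site, occurred in S100a11, with 2 copies, against 6.75%, and GGAAGT, a core of Ets sites, occurred in S100a8, S100a9 and S100a11, against 19.7%. None of these letters was found in the windows of S100a6 and S100a13. A match is a string of letters, and binding was not measured.

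Over the whole table null 1 and wild-type 1 deviated together and away from the 4 arrays of replicates 2 and 3, a split also seen in S100a4, S100a10 and S100a13. Array medians lay between 4.71 and 4.73 and array maxima between 14.98 and 14.99. The test was limma on all 27022 probe sets kept, with p-values adjusted over all of them by Benjamini-Hochberg, once without pairing and once with the replicate number as a block, which compares null and wild type within a number. The unpaired test called 51 probe sets (0.189%), and the blocked test called 2703 (10%), at an adjusted p under 0.05.

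Loss of miR-223 went with no S100 change that passed the unpaired test. S100a13 and S100a4 passed as higher in null cells when arrays were paired by replicate number, a pairing that the labels do not state. The S100a4 call was lost when the pair of replicate 1 or of replicate 2 was left out. In the unpaired test 0 of 7 members passed (limma), against 0.189% of all probe sets. Only S100a13, 1 of 7, had an unadjusted limma p under 0.05, as did 10.7% of all probe sets. S100a9 is counted in these shares and medians, although it is the maximum of every array and its test cannot decide. S100a8, at rank 2 or 3 on every array, is counted too. In the blocked test 2 of 7 passed, both higher in null cells, where 4.96% of all probe sets were called higher and 5.05% lower. Both lie 4 to 6 log2 units below the mean array maximum, where the block called 20.4% of 4310 probe sets in either direction. With numbers this small the count is a description of 2 genes. The median difference over the 7 was -0.00054 log2 units, against -0.01 over all kept probe sets. The median size of a difference was 0.024 log2 units against 0.11 over all kept probe sets. Among kept probe sets this median size differed between bands of brightness, and how far brightness set the S100 differences was not tested. That median was 0.034 within 1 log2 unit of the mean array maximum, where S100a8 and S100a9 lie. It was 0.041 at 1 to 2 units below, where S100a6 and S100a11 lie, and 0.10, 0.12 and 0.11 at 2 to 4, 4 to 6 and over 6 units below. S100a8, S100a9, S100a6 and S100a11 were bright with little spread over the arrays. S100a4, S100a10 and S100a13 spread more, and all 3 were highest on replicate 1 within each genotype.

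**Figure D1:**
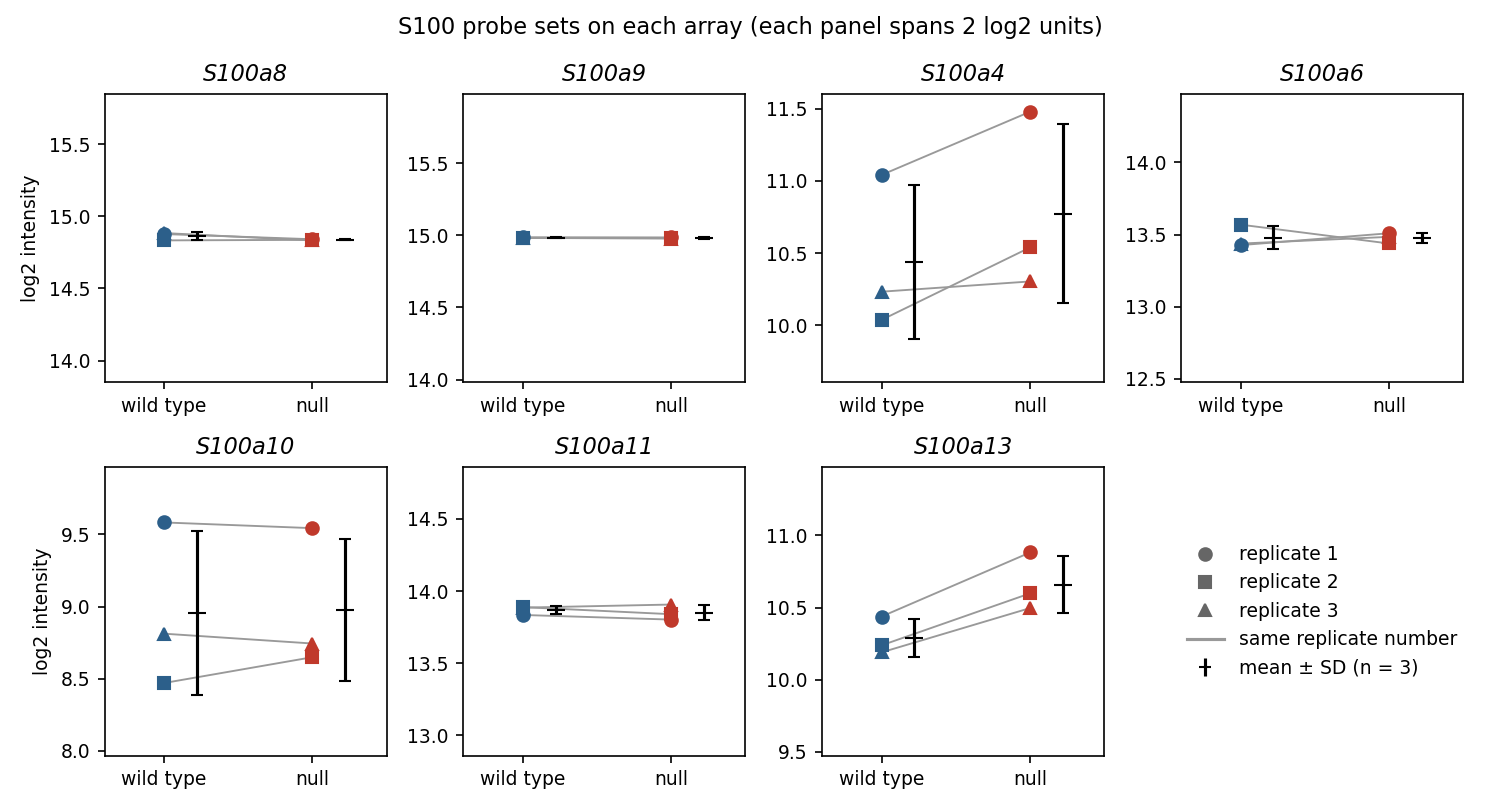
Each panel plots 1 S100 probe set on an axis spanning 2 log2 intensity units, with wild-type arrays in blue, null arrays in red, a marker shape per replicate number, grey lines joining arrays of the same number, and black bars for mean ± SD (n = 3). S100a13 and S100a4 are higher in null on all 3 lines, replicate 1 is highest in both genotypes for S100a4, S100a10 and S100a13, and the remaining 4 genes are nearly flat.

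The calprotectin genes read at the top of the array. S100a9 was the brightest of the 45101 probe sets on each of the 6 arrays, so its value is the array maximum itself. It read 14.985185, 14.981901 and 14.977249 on null arrays 1, 2 and 3, and 14.986553, 14.981901 and 14.981901 on wild-type arrays 1, 2 and 3. The same value to 6 decimals came back on null 2, wild-type 2 and wild-type 3, and only 3 of the 45101 probe sets held an equal value on 3 or more arrays. The groups overlapped. Its null mean was 14.98 ± 0.0040 (SD, n = 3) and its wild-type mean 14.98 ± 0.0027 (SD, n = 3), a difference of -0.0020 log2 units (SE 0.026, limma adjusted p = 0.990). As S100a9 is itself the highest value on every array, this difference compares array maxima. The test therefore cannot decide whether its mRNA changed. No fold is given for the same reason, and whether a higher value could have been recorded was not tested.

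S100a8 ranked 2 or 3 among all probe sets on every array, 0.099 to 0.149 log2 units below the maximum. It read 14.84, 14.84 and 14.83 on null arrays 1, 2 and 3 and 14.88, 14.83 and 14.88 on wild-type arrays 1, 2 and 3. Wild-type 1 and 3 were the highest and the groups overlapped through wild-type 2. The difference was -0.028 log2 units (SE 0.029, 95% interval -0.096 to 0.040, limma adjusted p = 0.809). That interval bounds the recorded signal only. So close to the array maximum, the test cannot decide whether the mRNA changed by more than the signal shows, and compression there was not tested. Within pairs it was -0.036, 0.0038 and -0.052. A within-array difference of S100a8 and S100a9 had been planned and is not reported, because S100a9 is the array maximum and the quantity is then only the distance of S100a8 from the top of the array.

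The range over the 6 arrays was small for the 4 bright members, and for S100a9 and S100a8 it was smaller than the median of the probe sets nearest the array maximum. Between their highest and lowest array, S100a9 spanned 0.0093 log2 units, S100a8 spanned 0.052, S100a11 spanned 0.104 and S100a6 spanned 0.142. No kept probe set had a smaller range than S100a9, and 0.074%, 0.936% and 2.62% had a smaller range than S100a8, S100a11 and S100a6. As S100a9 is the maximum of every array, its range is that of the array maxima and its place in this ranking describes the arrays. Among the 44 kept probe sets within 1 log2 unit of the mean array maximum, which include S100a8 and S100a9, the median range was 0.101 and the largest genotype difference was 0.14. Among the 260 between 1 and 2 units below it, which include S100a6 and S100a11, the median range was 0.169 and the largest difference 0.41. Among the 1484 between 2 and 4 units below, the median range was 0.343 and the largest difference 1.46. Among the 4310 between 4 and 6 units below, which include S100a4 and S100a13, the median range was 0.441. Among the 20924 more than 6 units below, which include S100a10, it was 0.449. From the brightest band to the dimmest, the share called with the block was 6.82%, 6.54%, 25.4%, 20.4% and 6.82%. How far compression near the maximum set the small differences of S100a8, S100a9, S100a6 and S100a11 was not tested.

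**Figure D2:**
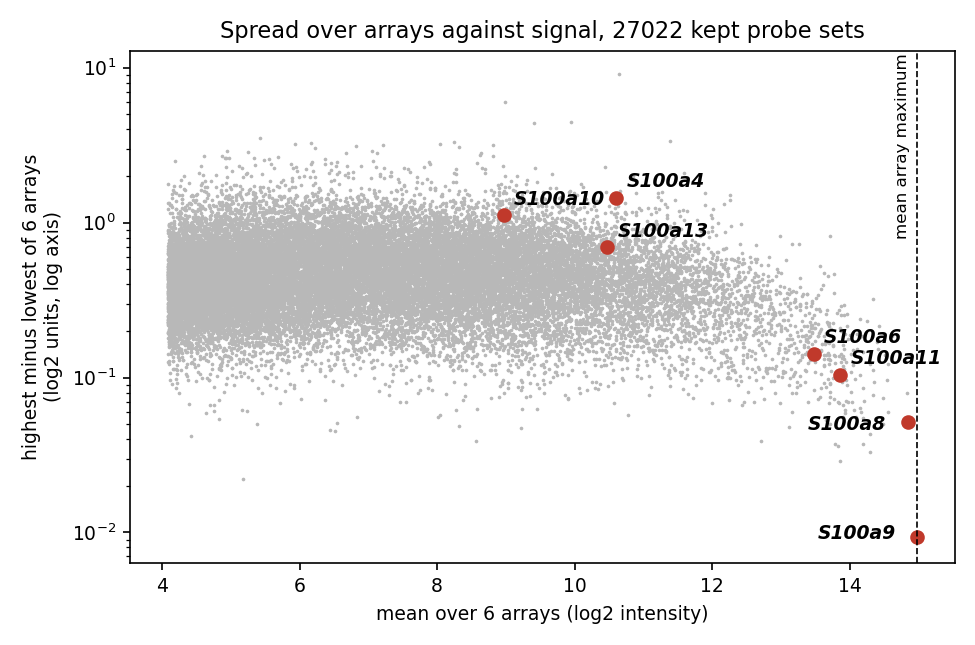
The range over the 6 arrays (highest minus lowest, log2 units, log axis) is plotted against the mean log2 intensity for the 27022 kept probe sets in grey and the 7 S100 probe sets in red, with the mean array maximum dashed. The spread narrows towards the maximum, where S100a9 (range 0.0093) and S100a8 (0.052) sit, while S100a4 (1.44) and S100a10 (1.11) lie high in the cloud.

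S100a6, calcyclin, and S100a11, a partner of annexin A1, were bright in both genotypes with overlapping groups. S100a6 read 13.51, 13.44 and 13.48 on null arrays 1, 2 and 3 and 13.43, 13.57 and 13.44 on wild-type arrays 1, 2 and 3. Wild-type 2 held the highest value and wild-type 1 the lowest. S100a6 differed by -0.00054 log2 units (SE 0.053, 95% interval -0.12 to 0.12, limma adjusted p = 0.998), and the sign turned to 0.0012 when each array was centred on its median. S100a11 read 13.80, 13.84 and 13.91 on null arrays and 13.83, 13.89 and 13.89 on wild-type arrays. The null arrays held both the lowest and the highest value. S100a11 differed by -0.020 log2 units (SE 0.043, 95% interval -0.12 to 0.080, limma adjusted p = 0.925). In fold terms the intervals run from 0.918 to 1.09 for S100a6 and from 0.920 to 1.06 for S100a11.

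S100a13, which takes part in the release of interleukin-1 alpha, read higher in null cells, by 0.37 log2 units. It read 10.88, 10.60 and 10.50 on null arrays 1, 2 and 3 and 10.44, 10.24 and 10.19 on wild-type arrays 1, 2 and 3. Every null array lay above every wild-type array, with null 3 closest to wild-type 1. S100a13 was the 1 member of 7 without overlap, where 8.12% of all kept probe sets had every null array above every wild-type array. No member had every null array below, against 8.68% of kept probe sets. The null mean was 10.66 ± 0.20 (SD, n = 3) and the wild-type mean 10.29 ± 0.13 (SD, n = 3), a difference of 0.37 log2 units or 1.29-fold (SE 0.12, 95% interval 0.082 to 0.66). A difference of this size or more was seen at 7.09% of kept probe sets.

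Without pairing, S100a13 did not pass (limma adjusted p = 0.346), and with the replicate block it did (SE 0.048, 95% interval 0.26 to 0.48, limma adjusted p = 0.00614). Within pairs 1, 2 and 3 S100a13 was higher by 0.44, 0.36 and 0.31 log2 units. With both replicate 1 arrays left out it was higher by 0.33 and passed without a block (limma adjusted p = 0.0411). The blocked call held without the pair of replicate 1, 2 or 3 (limma adjusted p = 0.0187, 0.0461 and 0.00427) and was lost when the variance was modelled without an intensity trend (limma adjusted p = 0.0745).

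**Figure D3:**
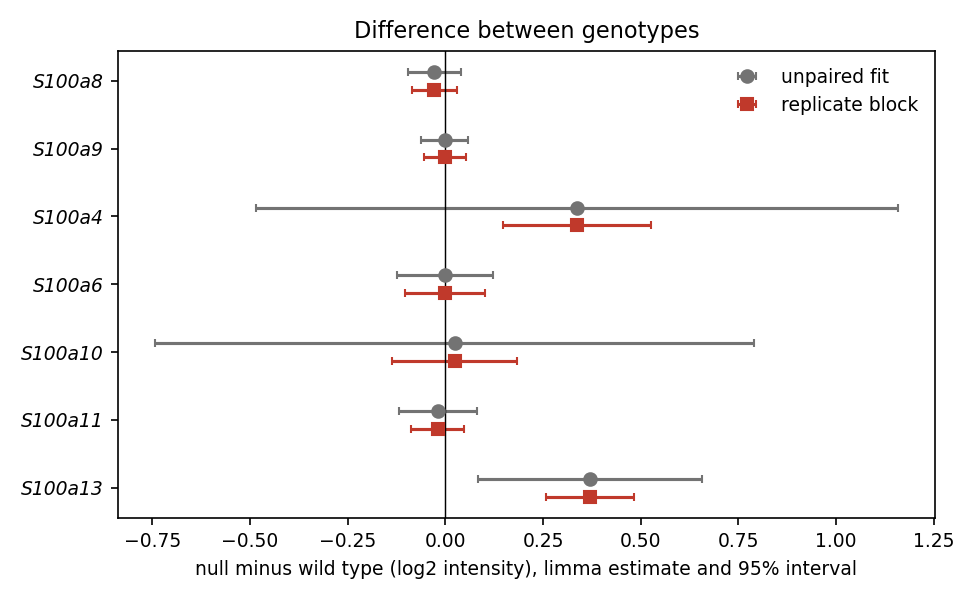
Points give the null minus wild-type difference in log2 intensity of each S100 gene and bars its 95% interval from limma, in grey for the unpaired fit and in red with the replicate number as a block. The blocked intervals of S100a13 (0.26 to 0.48) and S100a4 (0.15 to 0.53) lie above 0, and the other 5 span 0. Among these 5, S100a9 is the maximum of every array, so its interval cannot decide whether its mRNA changed.

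S100a4, the myosin-binding member, differed more between replicate numbers than between genotypes. It read 11.48, 10.54 and 10.30 on null arrays 1, 2 and 3 and 11.04, 10.04 and 10.23 on wild-type arrays 1, 2 and 3. The 2 replicate 1 arrays were the highest of all, and the groups overlapped because wild-type 1 lay above null 2 and null 3. The null mean was 10.77 ± 0.62 (SD, n = 3) and the wild-type mean 10.44 ± 0.53 (SD, n = 3), a difference of 0.34 log2 units or 1.26-fold. Unpaired, S100a4 was far from passing (SE 0.35, 95% interval -0.48 to 1.16, limma adjusted p = 0.809), and the difference was -0.016 once null 1 was left out.

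Within pairs S100a4 was higher in null by 0.44, 0.50 and 0.071 log2 units in replicates 1, 2 and 3. It passed with the block (SE 0.081, 95% interval 0.15 to 0.53, limma adjusted p = 0.0420). That call was lost without the replicate 1 pair (difference 0.29, limma adjusted p = 0.117), without the replicate 2 pair (0.25, limma adjusted p = 0.210) and without an intensity trend in the variance (limma adjusted p = 0.154). S100a13 and S100a4 were the 2 of 7 members higher in all 3 pairs, as were 21.6% of all kept probe sets, and 0 of 7 members were lower in all 3 pairs, as were 25% of all.

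S100a10 is unusual in the family because it no longer binds calcium and holds annexin A2 at membranes. It showed the replicate difference, and no genotype difference was detected. It read 9.54, 8.65 and 8.74 on null arrays 1, 2 and 3 and 9.58, 8.47 and 8.81 on wild-type arrays 1, 2 and 3. The replicate 1 arrays of both genotypes were the 2 highest and the groups overlapped. S100a10 differed by 0.024 log2 units between genotypes, with an unpaired 95% interval of -0.74 to 0.79 (SE 0.33, limma adjusted p = 0.991) and a blocked one of -0.14 to 0.18 (SE 0.068, limma adjusted p = 0.878). In fold terms the blocked interval runs from 0.910 to 1.14. Within pairs the difference was -0.040, 0.18 and -0.068.

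The shift of replicate 1 against the mean of replicates 2 and 3 had nearly the same size in both genotypes for S100a4 and S100a10. For S100a4 it was 1.06 log2 units in null and 0.91 in wild type, an average of 1.98-fold, and for S100a10 it was 0.85 and 0.94, an average of 1.86-fold. Shifts of at least that size occurred at 0.711% and 1.06% of all kept probe sets, whose median shift was 0.012 and median size 0.17. S100a13 shifted by 0.33 in null and 0.22 in wild type, and a shift of at least its average size was reached by 29.4% of kept probe sets. S100a8, S100a9, S100a6 and S100a11 shifted by 0.076 log2 units or less in each genotype. The labels do not say what the replicate number stands for, and no test was made on this shift, since the arrays of replicate 1 are 1 per genotype. Fewer cells with a given mRNA and less of it per cell cannot be told apart in such bulk RNA.

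**Figure D4:**
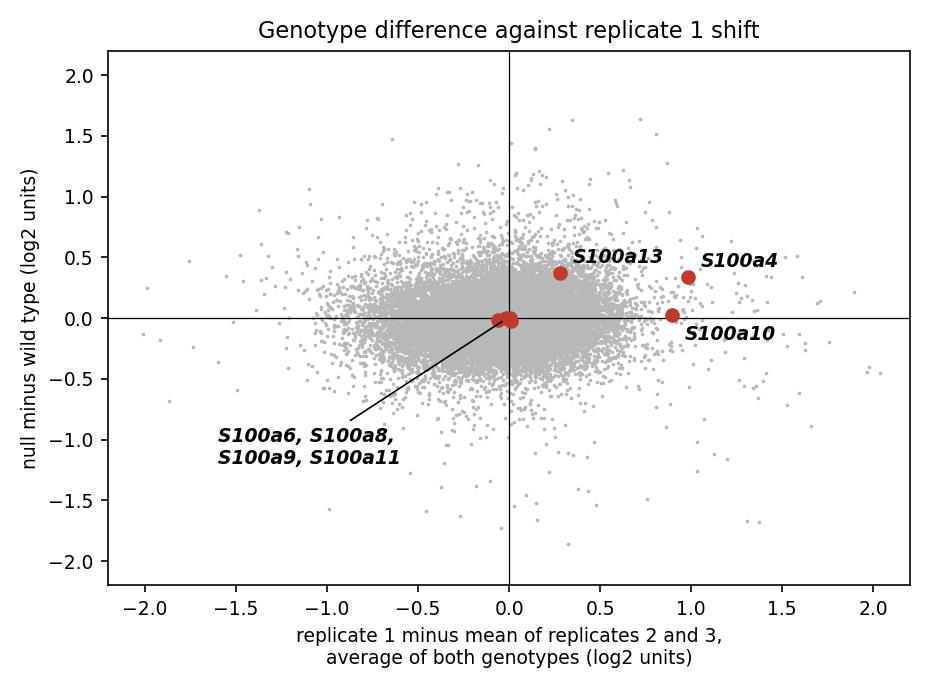
The null minus wild-type difference is plotted against the shift of replicate 1 from replicates 2 and 3 (average of both genotypes, both in log2 units) for kept probe sets in grey, of which 6 lie outside the drawn range, and for the S100 genes in red. S100a4 and S100a10 lie far to the right, S100a13 has a shift of 0.28 and a difference of 0.37, and the 4 bright genes lie at the centre.

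Many other probe sets followed the arrays as these 3 variable members did. Of 9857 kept probe sets with an SD of at least 0.2 over the 6 arrays, 802 (8.14%) correlated with S100a4 at r above 0.9, 555 (5.63%) with S100a10 and 456 (4.63%) with S100a13. The 3 closest to each reached r of at least 0.99, and none could be given a gene name here. With 6 arrays of which replicate 1 stands apart, such values describe the arrays.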

How the data were processed

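The deposited values are log2 intensity, 1 per probe set and array, in a table of 45101 rows and 6 columns made by the authors. The submitters' processing notes name GCOS. Background correction, normalization and probe summary are not given in the sources used here, and the log2 scale was read from the values. Groups and replicate numbers come from sample titles.

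After 64 control probe sets were set aside, those with a mean at or above the 40th percentile (at least 4.08) were kept, 27022 in all. Genotypes were compared in limma 3.58.1 under R 4.3.3 (lmFit, eBayes with intensity trend, two-sided tests, Benjamini-Hochberg over all kept probe sets, threshold 0.05). The code was tested on simulated data. Alternatives are given in the closing section. Deviations from the group mean correlated at 0.70, 0.30 and 0.48 between same-numbered arrays of replicates 1, 2 and 3, and on this basis, from the data and not the labels, the numbers were used as pairs. Null 3 with wild-type 2 also reached 0.41, so how replicates 2 and 3 pair is unsettled.

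Members and lists were chosen with earlier results of these data known. The rule for named genes was all 7 S100 probe sets, genes of fixed lists (S100 partners and receptors, oxidase subunits, other S100 and EF-hand genes, antimicrobial proteins, myeloid factors, cell type markers) and the 3 probe sets most alike. The lists were not run, as no table used here pairs probe sets with genes. The number of arrays limits precision. Sequences are from RefSeq (GRCm38.p6), in which 7 of 7 symbols matched.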

Additional observations from a re-analysis of the deposited data

How the results depend on the processing

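The count of 0 of 7 S100 members passing was also 0 with no filter, a filter at the 60th percentile, quantile normalization, median centring, no intensity trend, an adjusted p under 0.01, each array left out in turn (0 to 0) and the replicate block without intensity trend. It was 2 with the replicate block, 1 when both replicate 1 arrays were dropped, and 2 when replicate 1 formed a block of its own. The latter was chosen after seeing the data and gave limma adjusted p = 0.00536 for S100a13 and 0.0337 for S100a4. The blocked count was 1 to 2 when a pair was left out. The block changed no other member's call. Over the whole table the 51 calls became 2703 with the replicate block, 191 with the block without intensity trend, 1072 without both replicate 1 arrays, 2417 with replicate 1 as a block of its own and 2 at an adjusted p under 0.01. They ranged from 0 to 58 when 1 array was left out (0 without null 2 or wild-type 2, with 2064 and 1753 at an unadjusted limma p under 0.05) and the blocked count from 606 to 2319 when 1 pair was left out (2045 without replicate 1, 606 without replicate 2). The cause was not tested. S100a13 kept its direction in every setting run, from 0.26 to 0.45 log2 units, and so did S100a8 except that quantile normalization made its difference and that of S100a9 0, since both genotypes then hold the same top ranks. Differences that turned sign did so mostly when 1 array was left out. The ranges then were -0.016 to 0.64 for S100a4 (negative without null 1), -0.26 to 0.34 for S100a10 (negative without null 1, wild-type 2 or wild-type 3), -0.026 to 0.045 for S100a6, -0.049 to 0.0036 for S100a11 and -0.0039 to 0.000091 for S100a9. With the block and 1 pair left out they were -0.042 to 0.065 for S100a6 and -0.054 to 0.070 for S100a10. Median centring turned S100a6 to 0.0012. Whether S100a8 and S100a9 could have read higher on these arrays was not tested. The planned within-array difference of the pair is void, because S100a9 is the maximum of every array, and its values are left out.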
